A study of Mus musculus with 2 samples.

Results

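Lymphoid-primed progenitors, the bone marrow cells that carry RNA of the lymphoid genes Dntt or Flt3 while lacking high levels of myeloid, erythroid and megakaryocyte genes, were selected cell by cell from a GATA-1 knock-in (KI) library and a wild-type (WT) library. A cell was taken when Dntt and Flt3 together had at least 3 UMIs (a UMI tags 1 captured RNA molecule) and when it stayed under 4 limits, each in UMIs per 10000 UMIs of the cell. These limits were 5 for the erythroid gene Car1, 50 for the granule genes Mpo and Elane together, 5 for the monocyte genes Ly86, F13a1, Irf8 and Ms4a6c together, and 10 for the megakaryocyte genes Pf4, Itga2b, Cavin2, Treml1 and Rab27b together. The rule found 159 of 5781 KI cells and 177 of 5635 WT cells, 336 of 11416 cells in all.

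The KI group was 1 library of mice carrying a knock-in of the GATA-1 mutation named 2RA in the labels, and the WT group was 1 library of mice labelled WT. Both were bone marrow sorted as Lin- Kit+, that is, progenitors without mature lineage surface markers and with the Kit receptor, and the labels name no treatment. The labels give no strain, age or number of animals for either group, and do not describe the knock-in allele further. Droplet 3' RNA sequencing with UMIs measured each cell, and the study compared the populations and their gene expression between the genotypes.

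Early in lymphoid development, multipotent progenitors begin to transcribe lymphoid genes before they lose the capacity to make myeloid cells. Dntt encodes the terminal transferase that adds bases at immune receptor joints, and Flt3 is the receptor tyrosine kinase whose ligand sustains lymphoid and dendritic cell progenitors. GATA-1 is a zinc finger factor that binds GATA motifs in erythroid cells, megakaryocytes, eosinophils and mast cells, and lymphoid progenitors are known for carrying little of it.

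The 250 bases before the start sites of the genes that chose the cells are shown. GATA factors and E proteins (basic helix-loop-helix factors such as those of Tcf3 and Tcf4) are among the regulators named for these lineages. The sequences are from RefSeq (GRCm38.p6), written 5′ to 3′ on the strand of the gene, with GATAA and the E-box CANNTG in capitals; both strands were searched.
Dntt, chr19:41029025-41029274, plus strand: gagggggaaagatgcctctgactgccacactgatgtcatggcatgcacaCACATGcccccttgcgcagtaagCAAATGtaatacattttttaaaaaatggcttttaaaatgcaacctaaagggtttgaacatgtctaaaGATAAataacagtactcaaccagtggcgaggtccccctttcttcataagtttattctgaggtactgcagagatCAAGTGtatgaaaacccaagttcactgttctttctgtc
Flt3, chr5:147400490-147400739, minus strand: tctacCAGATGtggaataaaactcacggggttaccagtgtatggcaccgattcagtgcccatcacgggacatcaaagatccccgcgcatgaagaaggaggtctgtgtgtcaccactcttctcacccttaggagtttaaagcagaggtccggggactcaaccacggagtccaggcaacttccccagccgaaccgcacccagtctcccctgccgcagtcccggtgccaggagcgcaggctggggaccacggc
The Dntt window held 1 GATAA, which began at position -111 from the start site, and 3 CANNTG, at -201, -178 and -38. The Flt3 window held 0 GATAA and 1 CANNTG, at -245. The sequence GGGAA, also searched and left in lower case, had 1 match in each window, at -246 in Dntt and -73 in Flt3. Over 32851 promoter windows of the same length, 22.6% held a GATAA, 66.2% a CANNTG and 56.2% a GGGAA. A match is a description, not a binding site.

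There was 1 library per genotype and no replicate, so no difference between KI and WT could be tested. Every value compares these libraries, cells of a library are not replicates, and every interval is a 95% interval that covers counting error only. The libraries held 6640 KI and 7471 WT barcodes with 48005467 and 70543211 UMIs. The KI library was shallower, with a median of 5449 UMIs per kept cell in KI and 9826 in WT. Lymphoid-primed cells had a median of 4382 UMIs and 1758 genes in KI and 6331 UMIs and 2227 genes in WT. The libraries shared 10 barcodes, and no lymphoid-primed cell of one had the barcode of a lymphoid-primed cell of the other. Doublet scores were in the top 5% of their library for 6 KI and 3 WT lymphoid-primed cells. RNA free in the droplets was not estimated.

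Under the rule as given, the share of lymphoid-primed cells differed between the libraries by less than counting error. The share was 2.75% (2.34 to 3.21, exact binomial interval) of KI cells and 3.14% (2.70 to 3.63) of WT cells, and the log2 ratio of the shares, KI over WT, was -0.19 (-0.51 to 0.13). With every cell thinned to 3000 UMIs and shallower cells left out, the rule found 1.98% of KI and 2.05% of WT cells. With Dntt and Flt3 required to reach 5 UMIs per 10000 instead of 3 UMIs, the direction turned, with 3.06% of KI and 2.82% of WT cells (log2 ratio 0.12, -0.20 to 0.44). With a threshold of 5 UMIs the gap passed counting error, at 1.505% of KI and 2.04% of WT cells (-0.44, -0.86 to -0.03). Among the cells under the Car1 limit alone the share was 5.22% (4.45 to 6.07) in KI and 5.29% (4.55 to 6.10) in WT. Among the cells under all 4 limits the share was 7.41% (6.34 to 8.60) of 2146 KI cells and 12.02% (10.4 to 13.8) of 1472 WT cells. The last pair differed beyond counting error, with a denominator that held more KI than WT cells.

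Before the 4 limits, cells with at least 3 UMIs of Dntt and Flt3 made up 3.53% (3.07 to 4.04) of KI and 4.77% (4.23 to 5.36) of WT cells, which differed beyond counting error. A cut in UMIs admits deeper cells more easily, and the KI library was shallower. The part of depth in this gap was not tested. The limits removed fewer cells in KI than in WT. Of the cells with at least 3 UMIs of Dntt and Flt3, 45 of 204 in KI and 92 of 269 in WT were over at least 1 limit. The monocyte limit removed most of them, 38 in KI and 69 in WT. Just inside the threshold, with 3 UMIs of Dntt and Flt3, were 47 KI and 38 WT cells, and just outside, with 2 UMIs, were 68 KI and 74 WT cells. Satb1 stood at 156 CPM (UMIs of the gene per 1000000 UMIs summed over the cells) in KI and 108 CPM in WT cells just inside, and at 154 CPM in KI and 76.8 CPM in WT cells just outside. Lsp1 was no higher inside, at 196 CPM in KI and 142 CPM in WT cells. Just outside it stood at 197 CPM in KI and 184 CPM in WT cells.

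Most of the cells carried both genes of the rule. Dntt and Flt3 were both detected in 124 KI cells (78.0%) and 140 WT cells (79.1%). Dntt alone was detected in 27 KI cells (17.0%, 11.5 to 23.7) and 15 WT cells (8.47%, 4.82 to 13.6). Flt3 alone was detected in 8 KI cells (5.03%, 2.197 to 9.67) and 22 WT cells (12.4%, 7.96 to 18.2). The cells with Flt3 alone held less of other lymphoid genes than the cells with both genes, in both libraries. Satb1 stood at 99.7 CPM in KI and 96.2 CPM in WT cells with Flt3 alone, against 181 CPM in KI and 186 CPM in WT cells with both genes. In cells with Dntt alone Satb1 stood at 194 CPM in KI but at 105 CPM in WT, so low Satb1 was not particular to Flt3 alone in WT. Mpo stood at 1521 CPM in KI and 1353 CPM in WT cells with Flt3 alone, against 682 CPM in KI and 763 CPM in WT cells with both. These values rest on few cells, with 4 KI and 18 WT UMIs of Satb1 in the cells with Flt3 alone. The cells with Dntt alone had 25 KI and 9 WT UMIs of Satb1.

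The label was checked against 4 markers, of which the rule used Dntt and Flt3 and did not use Satb1 and Lsp1. Dntt (ENSMUSG00000025014, chr19:41029275-41059525, plus strand, mm10) had 762 UMIs in KI and 977 in WT, or 936 CPM (870 to 1004) in KI and 764 CPM (717 to 814) in WT. Flt3 (ENSMUSG00000042817, chr5:147330741-147400489, minus strand) had 249 UMIs in KI and 414 in WT, or 306 CPM (269 to 346) in KI and 324 CPM (293 to 357) in WT. Both levels follow from the rule and are given as a description. With a cell's Dntt and Flt3 required to reach 5 UMIs per 10000 instead of 3 UMIs, the log2 ratio of Dntt was 0.06, against 0.29 (0.15 to 0.43) under the rule.

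Satb1 and Lsp1 RNA was present in the selected cells of both libraries. Lsp1 was no higher just inside the threshold than just outside it in either library. Satb1 was near level across the threshold in KI (156 CPM inside, 154 CPM outside) and higher inside in WT (108 CPM against 76.8 CPM). Satb1 (ENSMUSG00000023927, chr17:51736187-51833290, minus strand), a chromatin organiser of early lymphoid cells, had 146 UMIs in KI and 214 in WT, or 179 CPM (151 to 211) in KI and 167 CPM (146 to 191) in WT. Lsp1 (ENSMUSG00000018819, chr7:142460809-142494867, plus strand), a leukocyte actin-binding protein, had 190 UMIs in KI and 239 in WT, or 233 CPM (201 to 269) in KI and 187 CPM (164 to 212) in WT. The Satb1 intervals of the genotypes overlapped, and the log2 ratio was 0.10 (-0.21 to 0.41). For Lsp1 it was 0.32 (0.04 to 0.60), but -0.00 with cells thinned to 3000 UMIs.

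**Figure D1:**
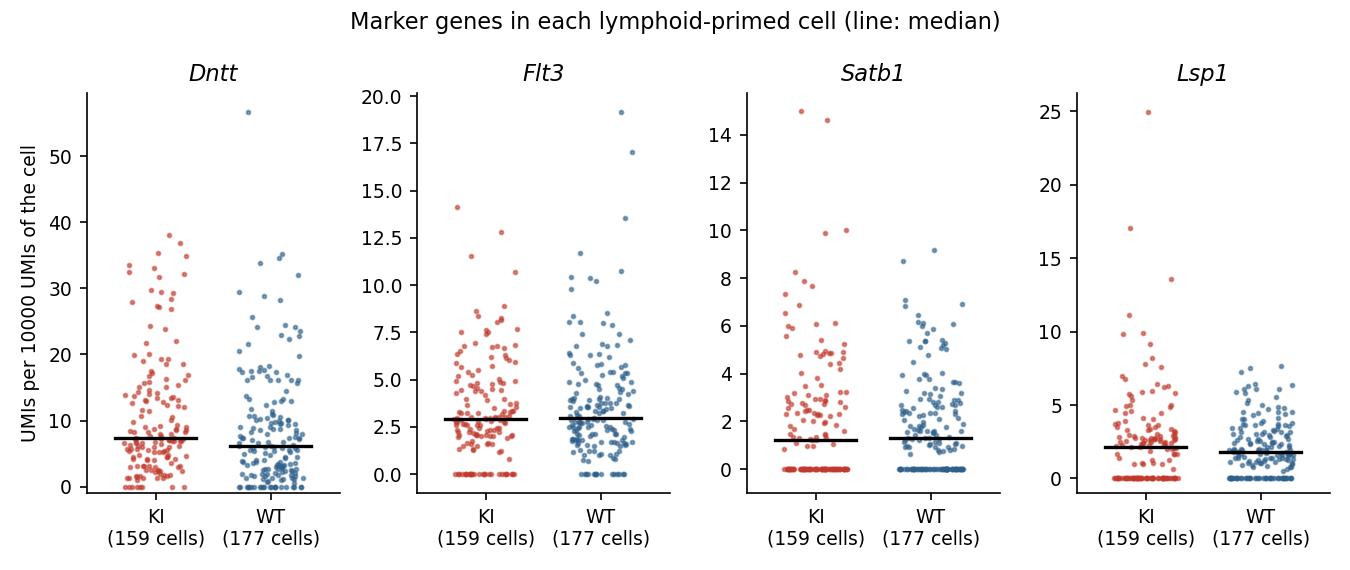
UMIs of Dntt, Flt3, Satb1 and Lsp1 per 10000 UMIs of the cell, 1 point per lymphoid-primed cell, with 159 KI cells left and 177 WT cells right and a line at the median. Median Dntt was 7.36 in KI and 6.07 in WT, median Satb1 was 1.21 in KI and 1.31 in WT, while the highest cell stood at 38.0 in KI and 56.7 in WT for Dntt and at 24.96 in KI and 7.67 in WT for Lsp1.

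Per cell, Satb1 reached 5 UMIs at most in each library and was at 0 in 74 of 159 KI and 65 of 177 WT cells. Lsp1 reached 7 UMIs in KI and 5 in WT and was at 0 in 61 KI and 46 WT cells. With each cell thinned to 2000 UMIs (157 KI and 176 WT cells were deep enough), Satb1 was detected in 35.7% of KI and 31.8% of WT lymphoid-primed cells. Unthinned, the shares were 53.5% in KI and 63.3% in WT. In cells of the Mpo gate (Mpo and Elane together at 50 or more per 10000, under the other 3 limits; 256 KI and 684 WT cells, with median depths of 8725.5 and 10363.5 UMIs), thinned in the same way, Satb1 was detected in 2.36% of KI and 4.32% of WT cells.

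Several genes of lymphoid priming that the rule did not use, though not Bcl11a, stood well above their levels in stem and granulocyte progenitors, in both genotypes. The stem gate comprised cells under the 4 limits with 0 UMIs of Dntt and Flt3 and at least 2 UMIs of the stem cell genes Hlf, Mecom, Meis1 and Procr, 533 in KI and 444 in WT. Satb1 stood at 37.1 CPM in KI and 35.1 CPM in WT stem gate cells, and at 18.8 CPM in KI and 18.1 CPM in WT Mpo gate cells. Ighm (chr12:113418558-113422730, minus strand), the heavy chain constant region transcribed before the receptor is joined, stood at 314 CPM in KI and 314 CPM in WT lymphoid-primed cells, against 25.4 CPM in KI and 20.3 CPM in WT stem gate cells. Notch1, the receptor that directs progenitors to the T cell fate, stood at 104 CPM in KI and 81.4 CPM in WT lymphoid-primed cells, against 14.2 CPM in KI and 10.9 CPM in WT stem gate cells. Bcl11a, a factor of B cell and lymphoid progenitors, stood at 209.96 CPM in KI and 193 CPM in WT lymphoid-primed cells, against 211 CPM in KI and 195 CPM in WT stem gate cells. Summed over the 15 genes of the priming list, the level was 2124 CPM in KI and 2098 CPM in WT lymphoid-primed cells. It was 942 CPM in KI and 972 CPM in WT stem gate cells, and 421 CPM in KI and 478 CPM in WT Mpo gate cells. The stem gate left out cells under the 4 limits with some Dntt or Flt3 UMIs but fewer than the rule required. These cells lay between the lymphoid-primed and the stem gate cells. Thinned to 2000 UMIs, they held a mean of 2.78 UMIs of the list in KI and 2.82 in WT. The mean was 4.66 in KI and 4.43 in WT lymphoid-primed cells, and 1.96 in KI and 2.07 in WT stem gate cells.

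Of the 10 genes ranked highest against the stem gate in both libraries, Dntt and Flt3 belong to the rule. The others were Ighm, Wfdc17, Satb1, Pou2f2, Emb, Cd52, BC035044 and Gpr171. Pou2f2, an octamer factor of B cells, stood at 147 CPM in KI and 151 CPM in WT lymphoid-primed cells, against 45.5 CPM in KI and 35.4 CPM in WT stem gate cells. Cd52, a short surface glycoprotein of lymphocytes, stood at 263 CPM in KI and 285 CPM in WT lymphoid-primed cells, against 87.6 CPM in KI and 96.1 CPM in WT stem gate cells. Lymphoid-primed cells held less RNA of the megakaryocyte, erythroid and mast cell programme than stem gate cells. Gata2, the GATA factor of stem cells and mast cells, stood at 25.8 CPM in KI and 32.9 CPM in WT lymphoid-primed cells, against 217 CPM in KI and 188 CPM in WT stem gate cells. Cpa3, a mast cell protease, stood at 11.1 CPM in KI and 27.4 CPM in WT lymphoid-primed cells, against 104 CPM in KI and 139.9 CPM in WT stem gate cells. Sdsl, Slc18a2, Mfsd2b, Csrp3 and F2r were lower as well, as was Apoe, for which KI and WT differed widely (given with the other genes that separated the genotypes).

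Against the Mpo gate the highest genes outside the rule were Wfdc17, Myl10, Gimap6, Hlf, Ctla2a, Satb1, Gimap1 and Lsp1. Hlf, a stem cell factor, stood at 134 CPM in KI and 131 CPM in WT lymphoid-primed cells, against 12.2 CPM in KI and 8.70 CPM in WT Mpo gate cells. Its level in stem gate cells was higher, at 202 CPM in KI and 196 CPM in WT, but Hlf helped to choose those cells. The genes ranked lowest against the Mpo gate were led by Ms4a3 outside the rule. Ms4a3 stood at 7.37 CPM in KI and 18.0 CPM in WT lymphoid-primed cells, against 1108 CPM in KI and 1217 CPM in WT Mpo gate cells. Cebpe, S100a8, Hp, Ly6c2, Igsf6, Trem3, Gda and Fcgr3 were lower in the same direction in both libraries.

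**Figure D2:**
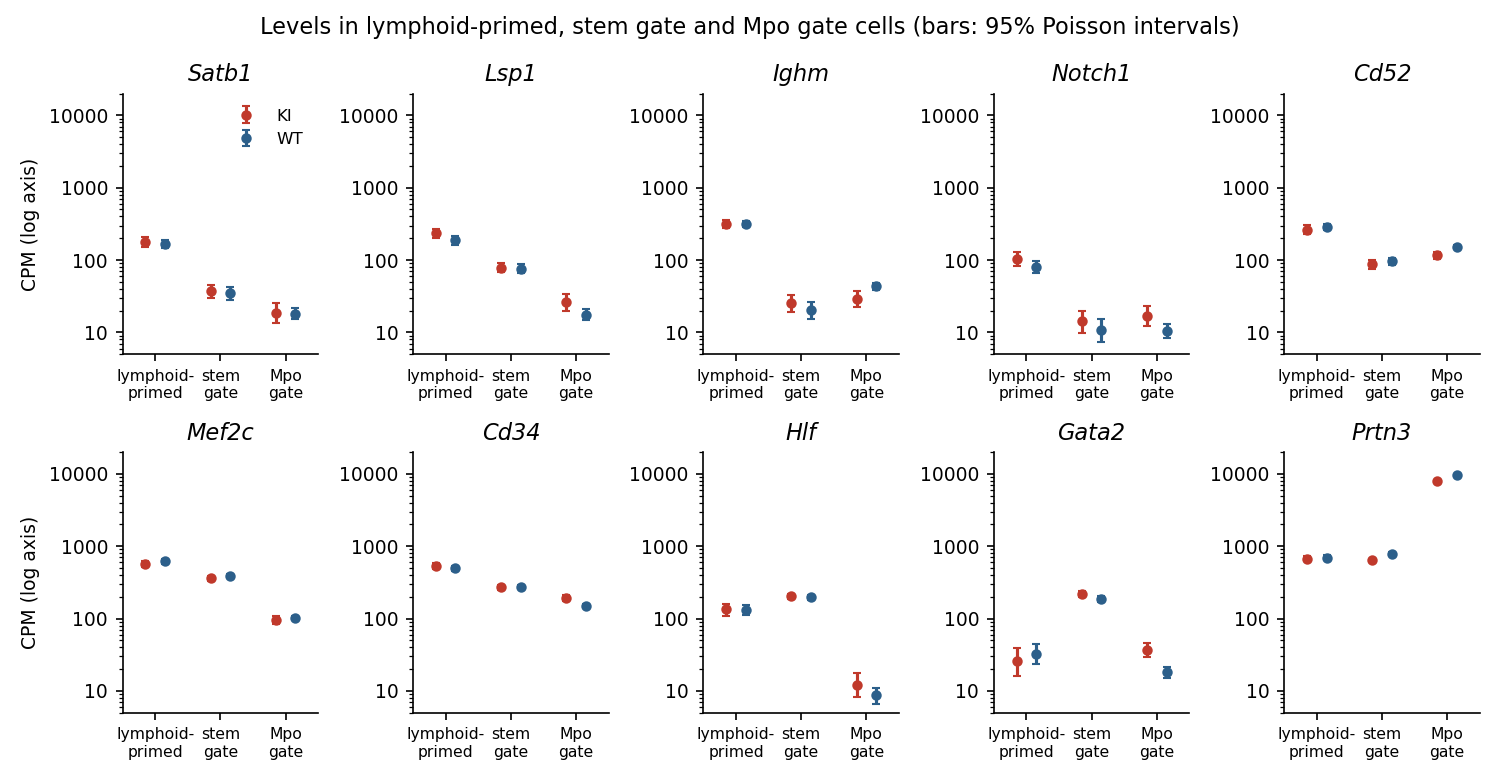
Level in CPM (log axis) of 10 genes in lymphoid-primed, stem gate and Mpo gate cells, KI left of WT in each pair, with 95% Poisson intervals. Satb1, Lsp1, Ighm, Notch1 and Cd52 were highest in the lymphoid-primed cells of both genotypes, Gata2 was highest in stem gate cells (217 CPM in KI, 188 CPM in WT), and KI and WT points lay close together in the lymphoid-primed cells.

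Committed lymphoid genes were rare or at 0. Il7r, the interleukin 7 receptor of common lymphoid progenitors, had 7 UMIs in KI and 17 in WT lymphoid-primed cells. Rag1, which cuts receptor gene segments, had 0 UMIs in both, and its partner Rag2 had 16 in KI and 9 in WT. Of the B lineage genes, Pax5, Vpreb2, Vpreb3, Igll1, Blk, Pou2af1, Ms4a1, Spib and Lef1 were at 0 in both libraries. The list summed to 71.2 CPM in KI and 59.4 CPM in WT lymphoid-primed cells, mostly Cd79b, with 49 UMIs in KI and 62 in WT. In stem gate cells it summed to 53.8 CPM in KI and 43.5 CPM in WT. Of the 14 T, NK and innate lymphoid genes, Cd3e, Cd3g and Il2rb were at 0 in both libraries, and the sum was 208 CPM in KI and 181 CPM in WT lymphoid-primed cells. Nkg7 made up most of it, and that gene stood higher in Mpo gate cells, at 731 CPM in KI and 795 CPM in WT. Lck, a T cell kinase, had 24 UMIs in KI and 19 in WT. Of the 12 dendritic cell genes, Cadm1, Cd209d, Xcr1, Batf3 and Clec9a were at 0 in both libraries and Siglech had 0 UMIs in KI and 1 in WT, and the list summed to 106 CPM in KI and 131 CPM in WT.

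RNA of the other lineages was present beside that of the lymphoid genes. The granulocyte and monocyte list, without the genes of the rule, summed to 1568 CPM in KI and 1576 CPM in WT lymphoid-primed cells, against 1572 CPM in KI and 1810.4 CPM in WT stem gate cells and 15490.4 CPM in KI and 17148.2 CPM in WT Mpo gate cells. Prtn3, a granule protease, stood at 674 CPM in KI and 697 CPM in WT lymphoid-primed cells. The erythroid list summed to 497 CPM in KI and 423 CPM in WT, most of it Car2, and Slc4a1 and Rhd were at 0 in both libraries. The megakaryocyte list summed to 115 CPM in KI and 127 CPM in WT, with Vwf, Gp1bb and Gp6 at 0 in both. The mast and basophil list summed to 23.3 CPM in KI and 72.0 CPM in WT, a log2 ratio of -1.63 (-2.42 to -0.90). None of its 8 genes reached the 50 UMIs set for a measured gene, and Hdc, which makes histamine, had 0 UMIs in KI and 17 in WT. Few WT cells carried the sum, with 11 UMIs of Prss34 in 1 cell and 35 of Cpa3 in 9 cells. With cells thinned to 2000 UMIs, 4.46% (1.81 to 8.97) of KI and 5.68% (2.76 to 10.2) of WT lymphoid-primed cells had a UMI of the list, against 18.1% of KI and 19.1% of WT stem gate cells. The part of free RNA in these sums was not tested.

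Within the lymphoid-primed cells, the other lymphoid genes went with Dntt and the granule genes went against it, in both libraries. Each library's cells were ranked by Dntt per UMI and divided into 3 bands (low, middle and high Dntt) of 53 cells each in KI and 59 each in WT, with median depths of 4944, 4351 and 4064 UMIs in KI and 8084, 5944 and 5617 UMIs in WT. From the low to the high band, Satb1 stood at 136, 178 and 238 CPM in KI, and at 130, 154 and 231 CPM in WT. Ighm stood at 260, 325 and 374 CPM in KI, and at 221, 304 and 452 CPM in WT. Lsp1 stood at 184, 246 and 285 CPM in KI, and at 144, 213 and 218 CPM in WT.

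Gimap6, a small GTPase of lymphocytes, stood at 162, 151 and 277 CPM in KI and at 80.9, 117 and 231 CPM in WT. All 7 KI UMIs and 12 of the 17 WT UMIs of Il7r were in the high band. Ctsg, the granule protease cathepsin G, stood at 387, 189 and 97.9 CPM from the low to the high band in KI, and at 487, 246 and 136 CPM in WT. Gata2 stood at 41.3, 26.5 and 4.25 CPM in KI, and at 57.2, 17.7 and 15.9 CPM in WT, from 21 KI and 42 WT UMIs. Flt3, whose UMIs also admitted cells with little Dntt, stood at 349, 284 and 272 CPM in KI and at 349, 311 and 303 CPM in WT.

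**Figure D3:**
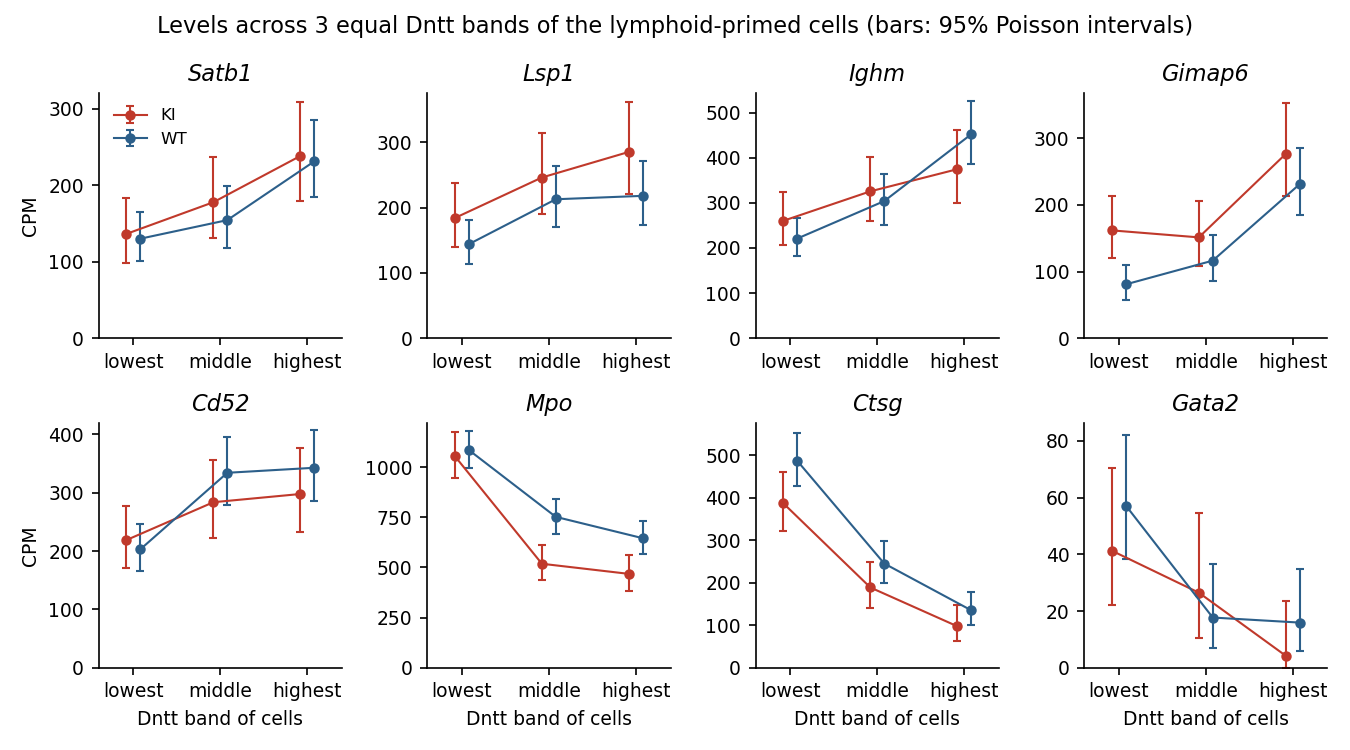
Level in CPM of 8 genes across the low, middle and high Dntt bands of the lymphoid-primed cells, low band left, KI points left of WT points, with 95% Poisson intervals. Satb1, Lsp1 and Ighm were higher toward the high band, for Satb1 238 CPM in KI and 231 CPM in WT, and Mpo, Ctsg and Gata2 were lower.

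The genotypes were then compared within the lymphoid-primed cells, on 5178 genes with at least 50 UMIs over both libraries. In these cells 38 genes (0.734%) were at least 2-fold higher in KI and 86 (1.66%) at least 2-fold lower, and 53.9% were higher by any amount. The median log2 ratio, KI over WT, over all these genes was 0.03. The shares were 0.59% higher and 1.17% lower of 8135 genes in stem gate cells, and 0.842% higher and 1.47% lower of 8430 genes in Mpo gate cells. In cells under the limits with 1 or 2 UMIs of Dntt and Flt3 (259 in KI, 251 in WT) they were 0.483% higher and 1.23% lower of 6412 genes. Over all kept cells, 2.39% of 12092 genes were at least 2-fold higher and 3.14% at least 2-fold lower.

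Lymphoid priming genes were near level between the genotypes. Of the 15 genes of the priming list 9 were measured, 5 higher and 4 lower in KI. Their median log2 ratio was 0.10, which stayed between 0.01 and 0.18 under every alternative run. None of the 9 was past 2-fold, against 0.734% higher and 1.66% lower of all 5178 measured genes. Ighm had 256 UMIs in KI and 402 in WT, a log2 ratio of -0.00 (-0.23 to 0.23). Mef2c, a factor of lymphoid priming, stood at 566 CPM in KI and 615 CPM in WT (log2 ratio -0.12, -0.29 to 0.05). Cd52, at -0.12 (-0.37 to 0.13), was also within counting error, and Notch1 stood at 0.36 (-0.07 to 0.79). Il2rg, the common chain of lymphoid cytokine receptors, had 28 UMIs in KI and 69 in WT (-0.65, -1.34 to 0.00).

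Lymphoid transcription factors were likewise near level. Of 18 listed, 14 were measured, 7 higher and 7 lower in KI, with a median of -0.02. None was past 2-fold, and few of all 5178 measured genes were (0.734% higher, 1.66% lower). Myb, needed from stem cells to early B and T cells, stood at 316 CPM in KI and 305 CPM in WT. Foxp1, needed for B cell development, stood at 286 CPM in KI and 263 CPM in WT. Tcf4 stood at 206 CPM in KI and 241 CPM in WT, and Spi1, which encodes the myeloid and lymphoid factor PU.1, at 172 CPM in KI and 179 CPM in WT. Etv6 alone had an interval that excluded level, at -0.49 (-0.90 to -0.10), from 77 UMIs in KI and 170 in WT.

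Gata1 RNA was nearly absent. Gata1 (ENSMUSG00000031162, chrX:7959260-7978071, minus strand) had 0 UMIs in KI and 7 in WT lymphoid-primed cells, and a count of 0 allows up to 3 UMIs. In stem gate cells it stood at 44.2 CPM in KI and 38.2 CPM in WT. Since the allele may be transcribed like the normal one, these counts are no check of the genotype labels. Gata2 had 21 UMIs in KI and 42 in WT lymphoid-primed cells (log2 ratio -0.35, -1.18 to 0.44). In stem gate cells it stood at 217 CPM in KI and 188 CPM in WT. Over all kept cells it stood at 128 CPM in KI and 61.1 CPM in WT (1.06, 1.01 to 1.12). The mix of cells differed there, with Mpo gate cells at 4.43% of KI and 12.1% of WT kept cells. The list of GATA factors and partners had 6 of 8 genes measured, 3 higher and 3 lower, with a median of -0.04. Tal1, an E-box factor that works with GATA factors, had 30 UMIs in KI and 23 in WT (1.03, 0.20 to 1.88). Lmo2, the bridging protein of that complex, stood at 517 CPM in KI and 586 CPM in WT (-0.18, -0.36 to -0.01).

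Among stem cell genes 6 of the 7 measured were higher in KI, against 53.9% of all 5178 measured genes. Of the 7, 2 had an interval above level and 1 an interval below it. The median of 0.21 turned to -0.01, -0.07 and -0.04 with the 5 UMIs per 10000 threshold, with cells thinned to 3000 UMIs and in cells of 3000 to 10000 UMIs. Hoxa9, a homeobox factor of multipotent progenitors, stood at 180 CPM (152 to 212) in KI and 110 CPM (92.8 to 130.1) in WT, a log2 ratio of 0.71 (0.37 to 1.05). Angpt1, a ligand of the Tie2 receptor made by stem cells, stood at 166 CPM in KI and 114 CPM in WT (0.54, 0.19 to 0.89). Ly6a, which encodes the stem cell antigen Sca-1, was lower, at 44.2 CPM in KI and 72.0 CPM in WT (-0.70, -1.30 to -0.13). Cd34 was near level, with 428 UMIs in KI and 632 in WT. In stem gate cells Hoxa9 was higher as well (0.45, 0.15 to 0.75).

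Genes of MHC class I antigen presentation were lower in KI, and so they were outside the lymphoid-primed cells. Of 12 genes 11 were measured, 8 lower and 3 higher, with a median of -0.55. At least 2-fold lower were 3 of them, against 1.66% of all 5178 measured genes. B2m, the light chain shared by class I molecules, stood at 862 CPM in KI and 1308 CPM in WT (-0.60, -0.73 to -0.47). H2-K1, a classical class I heavy chain, stood at 914 CPM in KI and 1333 CPM in WT (-0.55, -0.67 to -0.42). H2-Q4, H2-Q6 and H2-Q7 were past 2-fold, H2-Q7 with 66 UMIs in KI and 275 in WT (-1.41, -1.82 to -1.02). The H2 genes are close copies, and how their reads were divided is uncertain. The list's median was -0.35 in stem gate cells, -0.54 in Mpo gate cells and -0.44 over all kept cells. MHC class II genes, with 4 of 10 measured, had a median of -0.16.

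Members of 2 families of immune genes were higher in KI. Of the 4 measured Gimap genes, which lie in a cluster and encode GTPases of lymphocyte survival, 3 were higher, with a median of 0.51. Gimap6 stood at 192 CPM in KI and 136 CPM in WT (0.49, 0.17 to 0.81), and Gimap9 at 76.1 CPM in KI and 41.5 CPM in WT (0.88, 0.32 to 1.43). All 3 measured genes of the Ifi200 family of DNA sensors were higher, with a median of 0.70, or 0.24 with cells thinned to 3000 UMIs. Mndal stood at 297 CPM in KI and 183 CPM in WT (0.70, 0.43 to 0.96), and Aim2, which assembles an inflammasome on DNA, at 45.4 CPM in KI and 25.03 CPM in WT (0.86, 0.14 to 1.59). The Ifi200 genes are close copies too. Over all kept cells the medians were 0.62 for the Gimap family and 0.78 for the Ifi200 family.

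Interferon response genes did not move together. Of 21 listed, 12 were measured, 9 lower and 3 higher, with 2 intervals below level and 1 above it and a median of -0.26. Their sum was near level, at 2383 CPM in KI and 2412 CPM in WT (-0.02, -0.10 to 0.07), and the median was -0.20 in stem gate cells and 0.0059 in Mpo gate cells. Bst2, a membrane tether of viruses, stood at 47.9 CPM in KI and 150 CPM in WT (-1.65, -2.18 to -1.15). Ifitm1 went the other way, at 540 CPM in KI and 336 CPM in WT (0.68, 0.49 to 0.88), while Ifitm2 and Ifitm3 were near level, at 0.10 (-0.06 to 0.26) and -0.03 (-0.19 to 0.13).

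Immediate early genes, which are transcribed within minutes of a signal or of handling, were lower in part. Of the 16 measured, 9 were lower and 7 higher, with a median of -0.17. Past 2-fold on the lower side were 4 of the 16, against 1.66% of all 5178 measured genes. Fos stood at 387 CPM in KI and 717 CPM in WT (-0.89, -1.08 to -0.70), and Fosb at 184 CPM in KI and 352 CPM in WT (-0.93, -1.21 to -0.66). Klf2, Klf6, Zfp36 and Dusp1 were past 2-fold, Klf6 with 60 UMIs in KI and 216 in WT (-1.20, -1.64 to -0.78), and Klf4, under the minimum, had 3 UMIs in KI and 33 in WT. Jun stood on the other side, at 521 CPM in KI and 472 CPM in WT (0.14, -0.04 to 0.32). With each cell thinned to 2000 UMIs, Fos was detected in 36.9% of KI and 62.5% of WT lymphoid-primed cells, and in 49.7% of KI and 64.0% of WT stem gate cells. The list's median was -0.23 in stem gate cells, -0.23 in Mpo gate cells and 0.21 over all kept cells.

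G2 and M phase genes were mostly lower in KI, though not among cells of 3000 to 10000 UMIs. Of 22 G2 and M phase genes 21 were measured, 19 lower and 2 higher, with a median of -0.45. At least 2-fold lower were 3 of them (Ccnb1, Ckap2l and Aurka), against 1.66% of all 5178 measured genes. Outside the lymphoid-primed cells the median was -0.39 in stem gate cells, -0.11 in Mpo gate cells and -0.18 over all kept cells. In lymphoid-primed cells of 3000 to 10000 UMIs (135 in KI, 141 in WT) the median was 0.08, and Mki67, the proliferation marker, stood at -0.06 (-0.32 to 0.20) in all, 0.63 in these cells and -0.49 with cells thinned to 3000 UMIs. Thinned to 2000 UMIs, 57.3% (49.2 to 65.2) of KI and 63.1% (55.5 to 70.2) of WT cells had at least 1 UMI of the list. At least 3 UMIs were found in 22.9% (16.6 to 30.3) of KI and 29.0% (22.4 to 36.3) of WT cells. In stem gate cells 47.9% of KI and 57.7% of WT had at least 1 UMI of the list. Cells with 1 or 2 UMIs of Dntt and Flt3 stood at 46.3% in KI and 60.4% in WT. Of the 17 S phase genes measured 11 were lower and 6 higher, 1 with an interval below level, and the median was -0.10, or 0.01 in cells of 3000 to 10000 UMIs. Their sum was near level, at 1935 CPM in KI and 2036 CPM in WT (-0.07, -0.16 to 0.02). Thinned to 2000 UMIs, 75.8% (68.3 to 82.27) of KI and 88.1% (82.34 to 92.5) of WT cells had at least 1 UMI of the S phase list. These intervals did not overlap. At least 3 UMIs were found in 45.2% (37.3 to 53.4) of KI and 53.4% (45.8 to 60.9) of WT cells. In stem gate cells 80.7% of KI and 86.5% of WT had at least 1 UMI of the S phase list. Cells with 1 or 2 UMIs of Dntt and Flt3 stood at 83.7% in KI and 85.2% in WT. The part of depth in these differences was not tested further.

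The remaining lists moved little or rested on few counts. Cytokine receptors had 6 of 9 measured genes higher and a median of 0.32, which turned to -0.34 with cells thinned to 3000 UMIs. In homing and adhesion, 5 genes stood above level and 5 below it, at a median of 0.07. Within it Cxcr4, the receptor that keeps progenitors in the marrow, had 30 UMIs in KI and 21 in WT (1.17, 0.31 to 2.04). Cd48, a surface marker of multipotent progenitors past the stem cell, stood at 182 CPM in KI and 119 CPM in WT (0.61, 0.28 to 0.95). Cd53, a tetraspanin of leukocytes, went the other way, with 78 UMIs in KI and 184 in WT (-0.59, -0.99 to -0.20). All 4 measured Notch signalling genes were lower, with a median of -0.28 and with each interval including level. Cell-cycle inhibitors and p53 targets had a median of -0.06, and Cdkn1a, the inhibitor p21, stood at 45.4 CPM in KI and 25.03 CPM in WT (0.86, 0.14 to 1.59). Apoptosis regulators stood at a median of -0.05. The medians of the p53, apoptosis, GATA partner and lymphoid factor lists lay so near 0 that each changed sign under at least 1 alternative.

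Ribosomal protein genes were tightly counted. Of 81 measured, 58 were higher and 23 lower in KI, with a median of 0.15, while their sum was 341557 CPM in KI and 341510 CPM in WT. Rps29, Rps21, Rpl38, Rps27 and Rpl35 were at least 2-fold lower, against 1.66% of all 5178 measured genes. The median was 0.15 over all kept cells too. The globin gene Hbb-bt had 47 UMIs in KI and 16 in WT (2.21, 1.36 to 3.12), with 13 of the 47 in 2 cells. Over all kept cells Hbb-bt stood at 171 CPM in KI and 8.59 CPM in WT, and whether free RNA carried it into the lymphoid-primed cells was not tested.

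**Figure D4:**
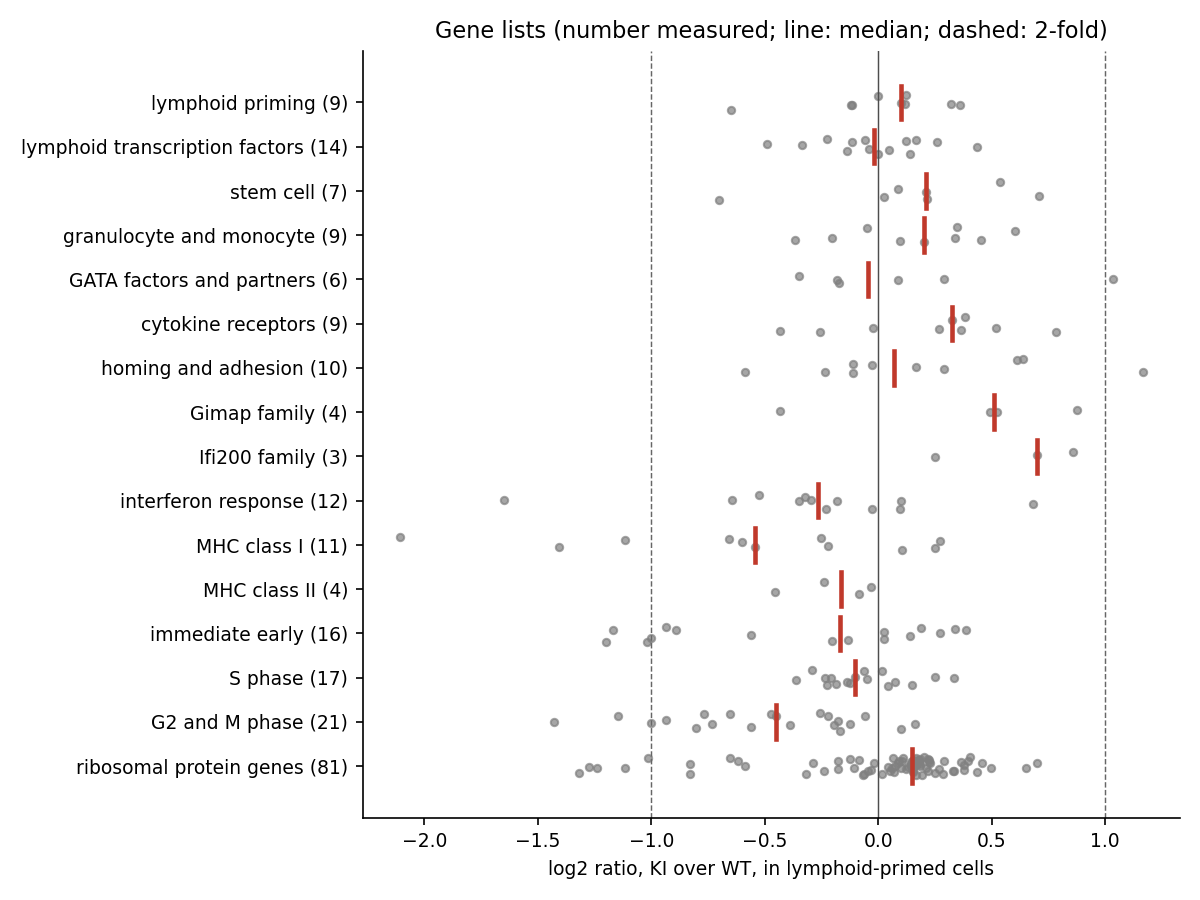
Log2 ratio, KI over WT, of each measured gene of 16 lists in lymphoid-primed cells (grey points), with the list's median (red line) and 2-fold marked (dashed). MHC class I (median -0.55) and G2 and M phase genes (-0.45, or 0.08 in cells of 3000 to 10000 UMIs) lay mostly left of 0, the Gimap (0.51) and Ifi200 (0.70) families right of it, and lymphoid priming genes (0.10) and lymphoid transcription factors (-0.02) around it.

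The single genes that stood farthest from level in the lymphoid-primed cells had the same sign in the other cells, some of them with smaller ratios there. Among the 12 higher genes with at least 100 UMIs in KI whose interval lay farthest from level, Gmfg (chr7:28437447-28448233, plus strand), which loosens branched actin, stood at 966 CPM in KI and 532 CPM in WT (log2 ratio 0.86, 0.71 to 1.01). It was detected in 157 of 159 KI and 167 of 177 WT cells, and stood at 0.86 in stem gate cells and 0.57 in Mpo gate cells. Txnip, which binds thioredoxin and curbs glucose uptake, stood at 327 CPM in KI and 188 CPM in WT (0.80, 0.54 to 1.06), and at 0.65 in stem gate cells. Tsc22d3, a target of glucocorticoids, stood at 168 CPM in KI and 90.7 CPM in WT (0.89, 0.52 to 1.26), and Ctla2a, a protease inhibitor, at 653 CPM in KI and 405 CPM in WT (0.69, 0.51 to 0.87).

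The linker histone gene Hist1h1c had 114 UMIs in KI and 80 in WT (1.16, 0.74 to 1.59), and Cdk2ap1, an inhibitor of a cell cycle kinase, had 100 in KI and 77 in WT (1.03, 0.58 to 1.48). Gm9493, a processed pseudogene, Hist1h1e, Ifitm1, Mndal, Tmem160 and Mtdh completed the 12. All 12 were higher in KI in stem gate cells, in Mpo gate cells and over all kept cells as well.

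At the other end, Hist1h2ap (chr13:21833026-21833507, minus strand), a replication-dependent histone gene, had 37 UMIs in KI and 824 in WT, or 45.4 CPM (32.0 to 62.6) in KI and 645 CPM (601 to 690) in WT. Its log2 ratio was -3.83 (-4.34 to -3.35) in lymphoid-primed cells, -3.91 in stem gate cells and -3.64 in Mpo gate cells. Histone genes are near-identical copies, and how reads were divided among them is uncertain. Apobec3 (chr15:79891659-79915906, plus strand), a cytidine deaminase that restricts retroviruses, had 39 UMIs in KI and 272 in WT (-2.15, -2.67 to -1.66), with -2.04 in stem gate and -1.90 in Mpo gate cells.

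Serinc3, a membrane protein that restricts retroviruses, stood at 165 CPM in KI and 444 CPM in WT (-1.43, -1.72 to -1.16). Apoe, a lipid carrier, had 2 UMIs in KI and 97 in WT lymphoid-primed cells, a log2 ratio of -4.95 with a wide interval (-8.02 to -3.06), and 25 of the 97 lay in 2 cells. Over the alternatives it ran from -5.58 to -2.55, the last with cells thinned to 3000 UMIs, where KI had 0 UMIs and was set at the floor of 3. In stem gate cells Apoe stood at 83.0 CPM in KI and 891 CPM in WT. Elane, a gene of the selection rule, had 35 UMIs in KI and 208 in WT lymphoid-primed cells, and 871 CPM in KI and 2379 CPM in WT over all kept cells. Gm10076, Hist1h2ae, Smim27, Wdr83os, Erh, Bst2 and Atp5k were also among the 12 lowest, and all 12 were lower in KI in stem gate cells, in Mpo gate cells and over all kept cells as well.

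**Figure D5:**
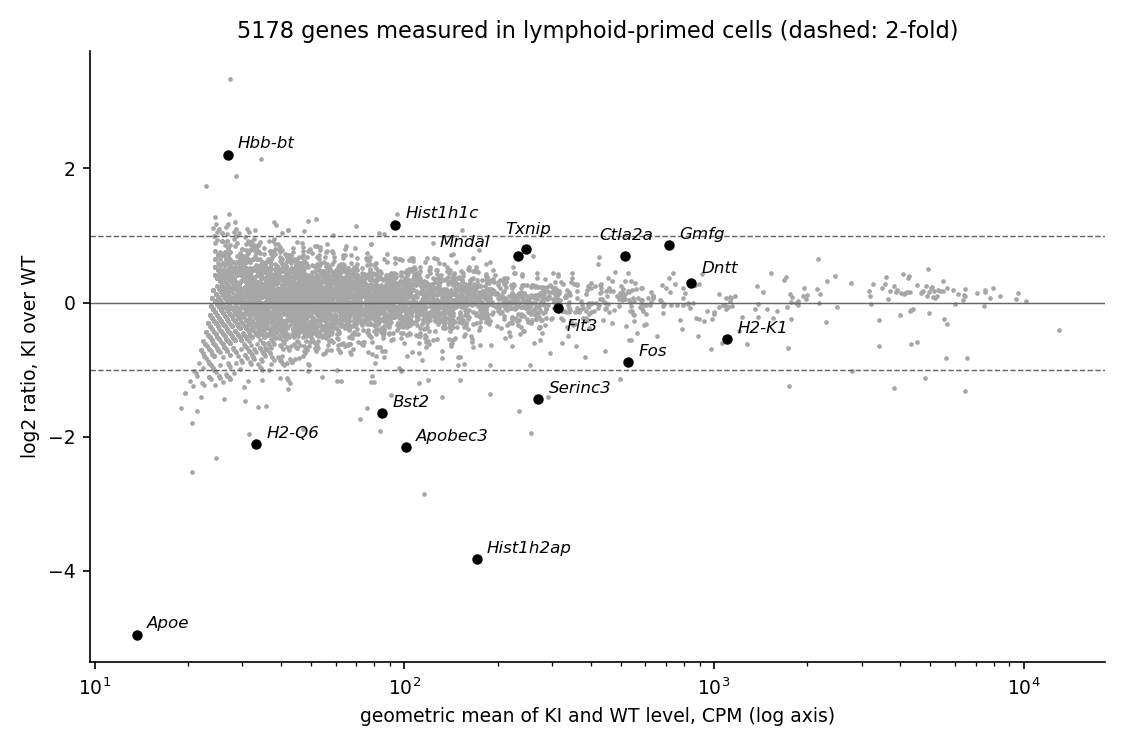
Log2 ratio, KI over WT, against level (geometric mean of KI and WT CPM, log axis) for the 5178 genes measured in lymphoid-primed cells, with 16 genes named and 2-fold marked (dashed). Most genes lay within 2-fold, with 0.734% above and 1.66% below, and Hist1h2ap stood at -3.83 and Apoe at -4.95. Of the genes the rule used, Dntt stood at 0.29 (0.15 to 0.43) and Flt3 at -0.08 (-0.32 to 0.15).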

How the data were processed

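UMI counts per gene and cell barcode were deposited by the authors for 1 KI and 1 WT library of bone marrow Lin- Kit+ cells; the file headers name Cell Ranger 3.1.0 and the submitters' processing notes name mm10. How barcodes were called is not given in the sources used here. Kept cells had at least 500 genes and 1000 UMIs and at most 10% mitochondrial UMIs (Python 3.11.15, numpy 2.4.6, scipy 1.17.1, pandas 2.3.3). Scrublet scores came from scanpy 1.11.5; no cell was removed by them. Counts were summed per library and set of cells and divided by their total (CPM). Levels have exact Poisson, shares exact Clopper-Pearson and ratios conditional binomial intervals at 95%, which cover counting error only. A gene was measured at 50 or more UMIs over both libraries. A count of 0 was read against a floor of 3 UMIs.

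Cells were chosen on these data, and the cells, gene lists and comparisons were chosen with earlier results of these data known. Named genes were the GATA factors, the 4 markers, the 12 in each direction whose interval lay farthest from level at 100 or more UMIs in the higher library (leaving out Y-linked, mitochondrial and ribosomal protein genes, Xist and Tsix), up to 4 genes of each list with the most UMIs, list genes at least 2-fold apart with 50 or more UMIs in the higher library, and the 10 that differed most from each gate. Some of these genes are not reported here. Other genes were named after their values were seen, among them Notch1, Il2rg, Il7r, Rag1, Rag2, Lck, Hdc, Etv6, Tal1, Ly6a, Cxcr4, Klf4, Cd53, Prss34 and Aurka. Coordinates are those of GENCODE M21, which held 30934 of the 31053 gene IDs. The summing and interval steps were tested on simulated data.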

Additional observations from a re-analysis of the deposited data

Results flagged for a closer look

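For 4 genes the log2 ratio, KI over WT, had opposite signs in lymphoid-primed cells and in Mpo gate cells, each with an interval that excluded level. The difference between these sets of cells was not tested for any of them. Nkg7, a granule protein of cytotoxic and myeloid cells, stood at 0.35 in lymphoid-primed cells and -0.12 in Mpo gate cells. Ctsg, the granule protease cathepsin G, stood at -0.37 in lymphoid-primed cells and 0.20 in Mpo gate cells. Lmo2, a bridging protein of GATA and E-box factors, stood at -0.18 in lymphoid-primed cells and 0.14 in Mpo gate cells. Emb, an adhesion protein of progenitors, stood at -0.23 in lymphoid-primed cells and 0.29 in Mpo gate cells.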

How the results depend on the processing

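No paired analysis was possible because each genotype had 1 library and the labels carry no replicate numbers; for the same reason no replicate could be left out. The share of lymphoid-primed cells was 3.93% in KI and 4.45% in WT with a threshold of 2 UMIs of Dntt and Flt3, 1.505% in KI and 2.04% in WT with 5 UMIs, 1.98% in KI and 2.05% in WT with cells thinned to 3000 UMIs, and 4.66% in KI and 5.53% in WT in cells of 3000 to 10000 UMIs. The count of genes at least 2-fold higher in KI, 38 as reported, was 24 with a threshold of 2 UMIs, 12 with thinned cells, 25 in cells of 3000 to 10000 UMIs, 354 with a gene minimum of 10 UMIs and 9 with 100. The count at least 2-fold lower, 86 as reported, was 34 with thinned cells, 57 in cells of 3000 to 10000 UMIs, 481 with a minimum of 10 and 40 with 100; thinning and higher minimums test fewer genes.

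Of the list medians, the Ifi200 family stood at 0.24 with thinned cells, G2 and M phase at 0.079 in cells of 3000 to 10000 UMIs, and cytokine receptors at -0.34 with thinned cells. Lsp1 turned to -0.0026 with thinned cells, Lyz2 to -0.035 with a threshold of 5 UMIs, Ube2c to 0.18 and Rps24 to -0.0026 in cells of 3000 to 10000 UMIs, and Ckap2l to 0.43 with thinned cells; the cause was not tested. Of the other gene values under an alternative, 1348 moved by less than counting error and 55 by more. The medians of MHC class I (-0.58 to -0.40), Gimap (0.26 to 0.68), interferon response (-0.49 to -0.21) and immediate early genes (-0.56 to -0.14) kept their sign under every alternative run. The KI depth limits genes of few UMIs.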
